A study of Mus musculus with 115 samples.

Results

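The 9 genes Insm1, Foxa2, Neurod1, Sox2, Onecut2, Prox1, Pou3f2, Nkx2-1 and Hes6 encode transcription factors of the neuroendocrine lineage or close partners of them. They were followed by symbol, matched to mouse Ensembl identifiers, in a table of 45699 genes, and each was measured in every library, of which 36 fell into 1 set and 79 into another along the main axis of variation described below. The libraries came from prostates of F2 males that carried the TRAMP transgene, in which the androgen-responsive minimal probasin promoter drives SV40 T antigen in prostate epithelium. WSB/EiJ males were bred to C57BL/6J TRAMP females, transgene-positive F1 females were bred to transgene-negative F1 males, and the F2 males were kept to 210 days or a humane endpoint. All libraries form 1 group, with no untreated, transgene-negative or other condition to compare. Every sample was bulk tissue, taken from the ventral prostate where the whole prostate weighed less than 1 g, so a change in the share of a cell type and a change in the RNA per cell cannot be told apart.

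Neuroendocrine cells are rare secretory cells of the prostate epithelium that store peptides and amines in dense-core granules. Their differentiation runs through cascades of transcription factors that are shared with neurons and pancreatic islets. Insm1 is a zinc-finger factor of endocrine and neural differentiation, Neurod1 is a basic helix-loop-helix (bHLH) factor that drives neuronal and endocrine genes, and Hes6 is a bHLH factor that opposes the Notch effector Hes1. Foxa2 is a forkhead factor of endoderm, Sox2 a factor of stem and progenitor cells, and Nkx2-1 a homeobox factor best known from lung, thyroid and forebrain. Pou3f2 (Brn2) is a POU-domain factor of neural development, Onecut2 a cut-homeobox factor of liver, pancreas and neurons, and Prox1 a homeobox factor that also marks lymphatic endothelium. The question asked of the data was how the levels of the 9 factors vary among prostates of transgene-positive males and against Chga, Mki67 and Tgm4. Chga encodes the granule protein chromogranin A, Mki67 a protein of dividing cells, and Tgm4 a transglutaminase secreted by the luminal prostate.

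Values are in TPM, a measure of transcript abundance that is scaled to the same total in every library and per transcript length, so that levels of different genes can be compared, but which keeps no sequencing depth. The 20 most abundant genes took 51.7% to 84.5% of the total of a library. A principal component analysis of the 14623 genes whose mean reached 1 TPM gave a leading component that took up 48.7% of the variance. The libraries separated along it into 36 and 79 (fall in the Bayesian information criterion of 196, Ashman D of 6.10). These sets come from the data and not from the labels, so levels are described within each and no test was made between them. The summed level of 9 neuroendocrine markers was between 7.60 and 1092 TPM (median 361) in the 36 libraries and between 1.11 and 52.3 TPM (median 7.73) in the 79. Over 8 proliferation markers the sum was between 305 and 944 TPM in the 36 and between 5.84 and 227 TPM in the 79. The sum of 10 prostate luminal markers was between 43.3 and 7573 TPM in the 36 and between 312 and 168060 TPM in the 79 (median 13174), and 4 basal markers had medians of 0.430 and 35.8 TPM.

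Insm1 and Prox1 were the members that marked nearly every library of the 36. Insm1 had a lowest, median and highest level of 0.11, 27.5 and 53.66 TPM there and reached 1 TPM in 33 of 36, while in the 79 it stayed at or under 0.08 TPM. Prox1 was at 14.58, 26.5 and 66.27 TPM in the 36, the narrowest range of any member as a ratio of highest to lowest, and at 0.02, 0.12 and 4.90 TPM in the 79, of which 2 reached 1 TPM. The lymphatic markers Lyve1, Flt4, Pdpn, Ccl21a, Reln and Mmrn1 summed to 2.04 to 61.1 TPM in the 36 and to 4.47 to 138 TPM in the 79. The part of lymphatic endothelium in the level of Prox1 was not tested.

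A member is called detected in a library at 1 TPM or more, and Hes6 was the only one detected in every library. It was at 14.82, 42.6 and 404.68 TPM in the 36 and at 3.06, 8.45 and 30.35 TPM in the 79, and the ranges overlapped. Sox2 was the only other member detected in more than 2 of the 79, with 0.17, 1.05 and 8.81 TPM in the 79, of which 40 reached 1 TPM. In the 36 it was at 0.05, 8.16 and 209.73 TPM, with 30 of 36 at 1 TPM or more.

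Foxa2 and Pou3f2 were each on in some of the 36 libraries and off in others. Foxa2 was at 0, 3.78 and 62.85 TPM and Pou3f2 at 0, 2.33 and 23.23 TPM, and each reached 1 TPM in 24 of 36. In the 79, Pou3f2 stayed at or under 0.08 TPM. Foxa2 reached 1 TPM there in the library W1154 alone, at 3.88 TPM.

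Onecut2, Neurod1 and Nkx2-1 were the low members. In the 36, Onecut2 was at 0.04, 0.85 and 6.58 TPM with 16 libraries at 1 TPM or more, Neurod1 at 0, 0.23 and 16.08 TPM with 8, and Nkx2-1 at 0, 0.23 and 3 TPM with 6. In the 79 their highest levels were 0.02, 0.02 and 0.15 TPM. At such levels a few reads may separate a value from 0, and since TPM keeps no depth the counting error is unknown.

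**Figure D1:**
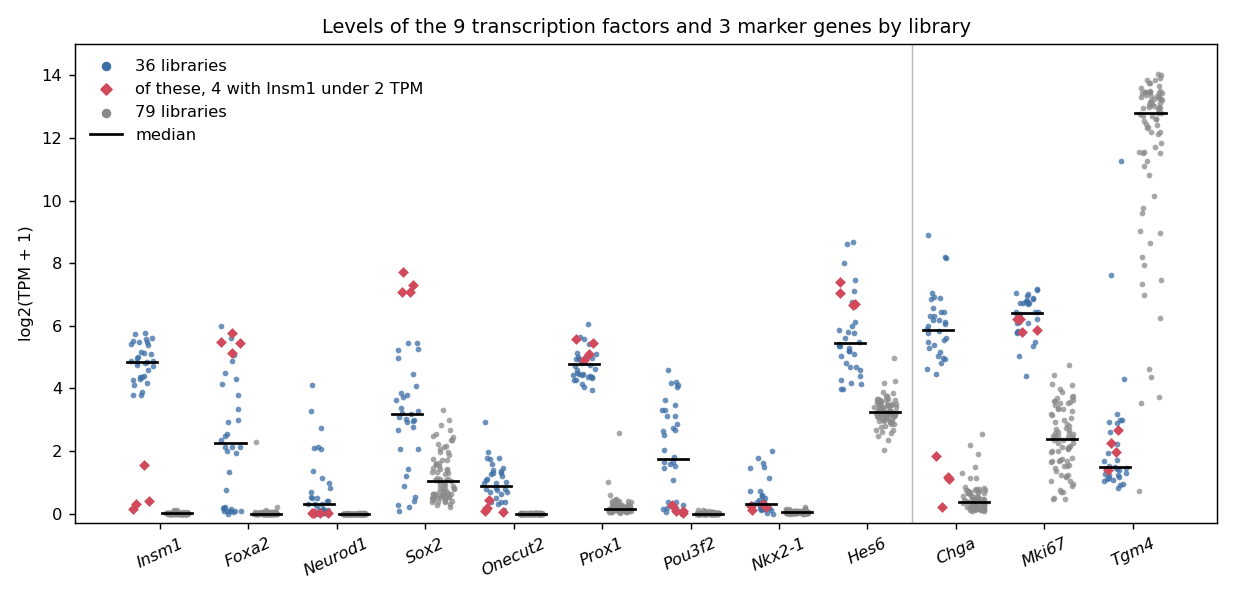
Levels of the 9 members and of Chga, Mki67 and Tgm4 on the log2(TPM + 1) scale, with a point for each library of the 36 (blue, and red diamonds for the 4 with Insm1 under 2 TPM) and of the 79 (gray), and a bar at each median. Insm1, Onecut2 and Prox1 in the 36 lie wholly above the 79, and the red diamonds are the lowest of the 36 for Insm1 and the highest for Sox2.

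The ranges of the 36 and the 79 did not overlap for 3 of the 9 members, Insm1, Onecut2 and Prox1, where the lowest of the 36 was above the highest of the 79. For Prox1 these levels were 14.58 and 4.90 TPM. For Insm1 they were 0.11 and 0.08 TPM and for Onecut2 0.04 and 0.02 TPM, where a few reads may make the gap. Of 39073 genes with a value above 0 in any library, 335 (0.857%) were separated in this direction. The members with a mean of at least 1 TPM took part in the component that set the libraries apart, so this count is a description.

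By median level in the 36 the order was Hes6, Insm1, Prox1, Sox2, Foxa2, Pou3f2, Onecut2, and then Neurod1 and Nkx2-1, whose medians were both 0.23 TPM. Several neighbors in this order changed places from library to library. Insm1 was above Prox1 in 20 libraries and below it in 16, Foxa2 was above Pou3f2 in 17 and below it in 19, and Neurod1 was above Nkx2-1 in 14 and below it in 22. Hes6 was above Insm1 in 27 of 36, and Prox1 above Sox2 in 28 of 36. In the 79 the order began with Hes6, Sox2 and Prox1, and Hes6 was above Sox2 in 79 of 79.

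The number of members detected in a library showed how the factors combined. In the 36, 4 members were detected in 5 libraries, 5 in 7, 6 in 12, 7 in 10 and 8 in 2, and no library had all 9. In the 79, Hes6 alone was detected in 38 libraries, and 40 had 2 members, which were Sox2 and Hes6 in 39 of them and Prox1 and Hes6 in 1. The remaining library, W1154, had 4: Foxa2 at 3.88 TPM, Sox2 at 8.81 TPM, Prox1 at 4.90 TPM and Hes6 at 30.35 TPM. For each of these 4 genes W1154 was the highest of the 79, while Insm1 was at 0.01 TPM and Chga at 0.09 TPM in it. Its luminal markers summed to 312 TPM and its neuroendocrine markers to 1.11 TPM, the lowest sums of the 79, Tgm4 was at 0.64 TPM and Mki67 at 3.80 TPM.

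Among the 36 libraries, 4 stood apart from the other 32 by Insm1. These libraries, W1118, W1790, W1050 and W1915, had Insm1 at 0.11, 0.23, 0.33 and 1.91 TPM, and the others lay between 12.69 and 53.66 TPM. They also had the lowest Chga, from 0.15 to 2.55 TPM against at least 21.15 TPM in the others. The factors did not fall together in them. Sox2 was at 135.21, 133.51, 156.26 and 209.73 TPM, the highest of all libraries, against at most 42.55 TPM in the others. Foxa2 was between 33.68 and 53.97 TPM, Prox1 between 28.88 and 46.30 TPM and Hes6 between 100.51 and 167.12 TPM, all within the range of the others. Pou3f2 was at most 0.20 TPM, Onecut2 at most 0.34 TPM and Neurod1 at most 0.02 TPM. Mki67 was between 54.67 and 74.05 TPM, within the range of the other 32 (20 to 144.47).

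Other genes separated the same 4 libraries from the 32. They are given with no test since both the libraries and these genes were chosen after their values were seen. The share of all genes that separate them in this way was not computed. In the 4 the neuroendocrine markers summed to 7.60 to 26.6 TPM. These sums are within the range of the larger set of libraries (1.11 to 52.3 TPM). Many granule and effector genes of neuroendocrine cells lay wholly below the others. Scg5 was at most 0.30 TPM (others at least 15.96) and Snap25 at most 0.15 TPM (others at least 17.02). Some, such as Chgb and Uchl1, overlapped. Myt1, a zinc-finger factor of neural differentiation, was at most 0.60 TPM (others at least 5.26), and Sox1, a neural relative of Sox2, at most 0.22 TPM (others at least 6.83). Hes1, the Notch effector opposed by Hes6, was between 23.94 and 44.35 TPM (others at most 10.21). The receptor gene Notch2 was between 11.53 and 15.64 TPM (others at most 9.22). Other genes of the Notch pathway did not share this direction as a set. Dll3 lay below, at most 0.32 TPM (others at least 0.41), and Hes5 had a median of 0.39 TPM (others 4.07) with overlapping ranges. The remaining Notch pathway genes compared also overlapped, some with higher and some with lower medians. Pou2f3, known as the factor of tuft cells, was between 2.65 and 54.32 TPM (others at most 1.20). Sox21 was between 13.78 and 18.28 TPM (others at most 1.22) and Pou3f3 between 5.73 and 16.87 TPM (others at most 0.95). The epithelial keratin genes Krt8 and Krt18 were at least 368.98 and 355.23 TPM (others at most 310.51 and 161.38), while Hoxb13, a homeobox factor of the prostate, was at most 0.15 TPM (others at least 1.37). Col1a1, a collagen of fibroblasts, was at least 112.02 TPM (others at most 94.65). Because these libraries decide several relations, each relation below is given over the 36 and again over the 32.

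Relations were taken within the 36 libraries, on log2(TPM + 1). Of the members, 7 had a mean of at least 1 TPM and did not separate into clusters of at least 6 libraries each. These were Insm1, Foxa2, Sox2, Onecut2, Prox1, Pou3f2 and Hes6. Insm1 and Chga did split into 4 and 32 libraries, and Tgm4 into 34 and 2. The smaller cluster was under that size, so these genes were kept, and their relations over the 36 pool both clusters. Every gene with a mean of at least 1 TPM was regressed on the chosen predictor with limma, and p-values were adjusted by the Benjamini-Hochberg method over all of them, here 15511 genes. A slope is the change in log2(TPM + 1) per unit of log2(TPM + 1) of the predictor. In all, 43 relations were examined: 21 with the marker genes, 21 between members and 1 in the 79 libraries. Pearson's r and Spearman's rho have two-sided permutation p-values from 100000 resamples, of which 1e-05 is the smallest they can give. A pair of members passed where both directions had an adjusted p under 0.05.

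Foxa2 and Pou3f2 were not high in the same libraries. Of the 36 libraries, 15 had Foxa2 at 5 TPM or more and 15 had Pou3f2 at 5 TPM or more, and 0 had both. The remaining 6 had neither. At 10 TPM the counts were 12, 7 and 0, and at 1 TPM both were detected in 14 libraries. The library with the highest Foxa2, W1182 at 62.85 TPM, had Pou3f2 at 0.03 TPM, and the library with the highest Pou3f2, W4498 at 23.23 TPM, had Foxa2 at 0.10 TPM. The relation was negative, with r = -0.68 (permutation p = 3e-05) and rho = -0.66 (permutation p = 3e-05). Leaving out W4498 and W1702, the 2 libraries with the most extreme Pou3f2, gave r = -0.65. The slope of Foxa2 on Pou3f2 was -0.93 ± 0.16 (SE, n = 36, limma adjusted p = 0.00047), and the reverse slope was -0.50 (adjusted p = 8.20e-05). Over the 32 libraries the slope was -0.78 with r = -0.60, and the limma adjusted p was 0.018. With the first principal component of the 36 as a covariate the adjusted p was 0.066.

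**Figure D2:**
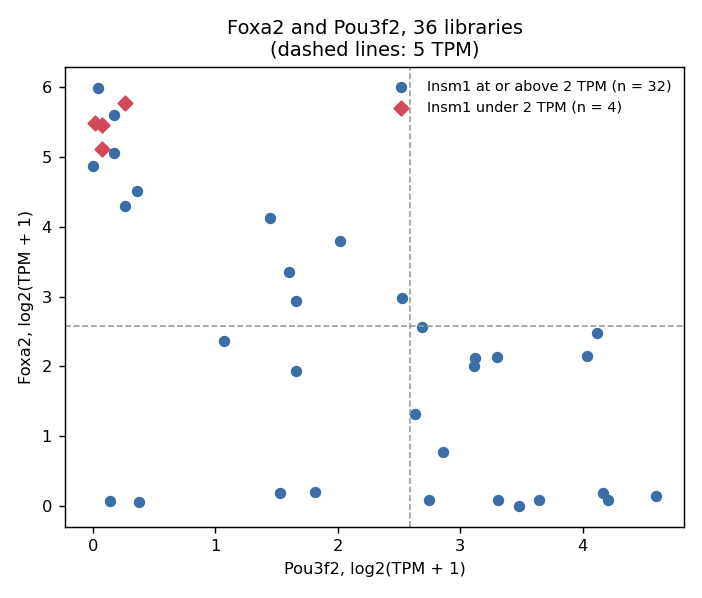
Foxa2 against Pou3f2 on the log2(TPM + 1) scale, with a point for each of the 36 libraries, red diamonds for the 4 with Insm1 under 2 TPM and dashed lines at 5 TPM. No library lies beyond both lines, 15 lie beyond each alone and 6 beyond neither.

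Foxa2 and Hes6 moved together. In the 12 libraries with Foxa2 under 1 TPM, Hes6 was at most 69.17 TPM, and the libraries with the highest Hes6, W1182 at 404.68 TPM and W370 at 393.53 TPM, had Foxa2 at 62.85 and 47.69 TPM. The slope of Foxa2 on Hes6 was 1.10 ± 0.20 (SE, n = 36, limma adjusted p = 0.00011), with r = 0.68 (permutation p = 4e-05) and rho = 0.62 (permutation p = 0.00014). Leaving out these 2 libraries gave r = 0.60. Over the 32 the slope was 0.94 with r = 0.63 (limma adjusted p = 0.0016). Hes6 and Pou3f2 had a negative relation over the 36, with a slope of Pou3f2 on Hes6 of -0.58 ± 0.17 (SE, limma adjusted p = 0.010) and rho = -0.45, which did not pass over the 32 (slope -0.46, adjusted p = 0.075).

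The promoters of these 3 genes are shown because their levels moved together or apart. Each sequence holds 250 bases before and 50 after the transcription start, from RefSeq on GRCm38.p6, written 5′ to 3′ on the strand of the gene, and taken at the RefSeq start that equals the GENCODE M21 start. Capitals mark an E-box (CANNTG, bound by bHLH factors such as Neurod1) or an N-box (CACNAG, bound by Hes factors), searched on both strands. The Foxa2 promoter lies at chr2:148046920-148047219, that of Pou3f2 at chr4:22488317-22488616 and that of Hes6 at chr1:91413989-91414288, all on the minus strand.
Foxa2: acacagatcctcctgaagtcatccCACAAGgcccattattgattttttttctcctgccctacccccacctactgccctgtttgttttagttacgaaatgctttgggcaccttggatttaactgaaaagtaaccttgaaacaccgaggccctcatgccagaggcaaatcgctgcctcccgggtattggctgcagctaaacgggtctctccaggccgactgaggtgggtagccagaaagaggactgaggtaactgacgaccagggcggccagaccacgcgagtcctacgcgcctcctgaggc
Pou3f2: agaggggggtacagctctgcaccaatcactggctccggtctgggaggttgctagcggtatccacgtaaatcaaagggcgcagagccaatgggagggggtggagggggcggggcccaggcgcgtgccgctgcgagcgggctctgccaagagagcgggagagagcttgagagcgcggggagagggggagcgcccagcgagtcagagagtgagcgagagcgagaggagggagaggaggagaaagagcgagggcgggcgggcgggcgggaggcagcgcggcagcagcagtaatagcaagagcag
Hes6: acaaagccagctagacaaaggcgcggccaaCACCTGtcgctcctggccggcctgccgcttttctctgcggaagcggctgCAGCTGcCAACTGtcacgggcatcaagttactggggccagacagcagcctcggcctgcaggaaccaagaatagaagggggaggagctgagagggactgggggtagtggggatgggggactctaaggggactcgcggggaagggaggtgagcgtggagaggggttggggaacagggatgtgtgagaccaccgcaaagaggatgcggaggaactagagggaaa
The Foxa2 window held 1 N-box and 0 E-boxes, the Hes6 window 3 E-boxes and 0 N-boxes, and the Pou3f2 window neither. Of 32851 promoters of the same length, 72.3% held an E-box and 42.5% an N-box, so such matches are common. A forkhead motif (TGTTTAC, found in 3.65% of promoters), an octamer (ATTTGCAT, 1.74%) and a Sox motif (ATTGTT, 10.7%) were in none of the 3 windows on either strand. The N-box and E-box letters can overlap, but the matches shown do not. Promoter sequences were matched for 7 of the 9 members, of which these 3 are printed. None was found for Insm1, and that of Onecut2 was not searched. The end of the Hes6 window was not found in the longest GENCODE M21 transcript of Hes6, while the ends of the Foxa2 and Pou3f2 windows were found in theirs.

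Of the 21 pairs among the 7 members, 9 passed in both directions, 5 with positive and 4 with negative slopes, and over the 32 libraries 3 passed. Many genes passed against each member, so single pairs are to be read against that background. With the member as predictor, 52.8% of genes passed for Insm1, 42.1% for Onecut2, 36.3% for Foxa2, 32.9% for Hes6, 30.3% for Sox2, 20.7% for Pou3f2 and 9.10% for Prox1. Over the 32 libraries these shares were 0.00645% for Insm1, 17.7% for Onecut2, 9.05% for Foxa2, 16.2% for Hes6, 0.0193% for Sox2, 3.20% for Pou3f2 and 15.1% for Prox1, so the background fell for all but Prox1 as the count of pairs fell from 9 to 3. The Foxa2 relations with Pou3f2 and Hes6 passed in both sets of libraries.

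Insm1 was related to 4 other members over the 36 libraries. Its slope was -0.41 ± 0.10 on Sox2 (SE, limma adjusted p = 0.0019), -0.35 ± 0.10 on Foxa2 (adjusted p = 0.0087), 0.49 ± 0.14 on Pou3f2 (adjusted p = 0.014) and 0.95 ± 0.35 on Onecut2 (adjusted p = 0.030). Over the 32 libraries none of these 4 pairs passed, with r between -0.06 for Foxa2 and 0.30 for Pou3f2 and a larger limma adjusted p of the 2 directions of at least 0.58. With Insm1 as predictor 1 of 15510 genes passed over the 32, so few genes of any kind could pass there. Sox2 was likewise related to Hes6 over the 36 (slope 0.81 ± 0.23, SE, limma adjusted p = 0.0078, rho = 0.56) and not over the 32 (slope 0.50, adjusted p = 0.084, and 0.91 with Sox2 as predictor, where 3 of 15510 genes passed), although rho was 0.47 (permutation p = 0.0066) there, and its relation to Foxa2 (slope of Foxa2 on Sox2 0.43 ± 0.15, SE, adjusted p = 0.029) had an adjusted p of 0.94 over the 32.

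Onecut2 and Prox1 passed over the 32 libraries and not over the 36 in TPM. Over the 36, r was 0.39 (permutation p = 0.019), rho was 0.38 and the slope of Onecut2 on Prox1 was 0.50 ± 0.20 (SE, limma adjusted p = 0.11). Over the 32, r was 0.64 (permutation p = 0.00012), rho was 0.66 and the slope was 0.79 (limma adjusted p = 0.0063). Without W1065 and W992, which had the highest Prox1, r was 0.34 over the 36 and 0.68 over the 32. Over the 36 the pair also passed with the first principal component as a covariate (slope 0.60, adjusted p = 0.019) and after rescaling without the 20 genes of the largest share (slope 1.10, adjusted p = 0.0100). The library with the highest Prox1 of the 36, W1065 at 66.27 TPM, had Onecut2 at 1.31 TPM, and the library with the highest Onecut2, W4417 at 6.58 TPM, had Prox1 at 41.71 TPM. The 4 libraries left out had Prox1 of at least 28.88 TPM with Onecut2 of at most 0.34 TPM.

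**Figure D3:**
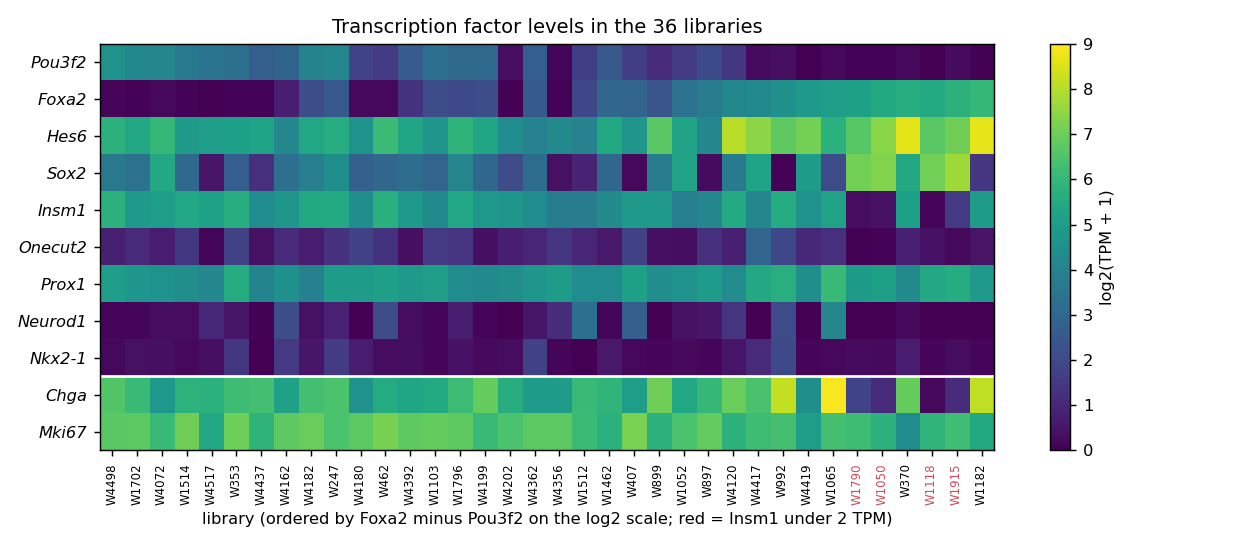
Level of each member, Chga and Mki67 (rows) in each of the 36 libraries (columns), as a color on the log2(TPM + 1) scale, with libraries ordered by the difference of Foxa2 and Pou3f2 and red names for the 4 with Insm1 under 2 TPM. Hes6 is brightest at the Foxa2 end, where W1182 and W370 are at 404.68 and 393.53 TPM, and Prox1 lies between 14.58 and 66.27 TPM in all columns.

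**Figure D4:**
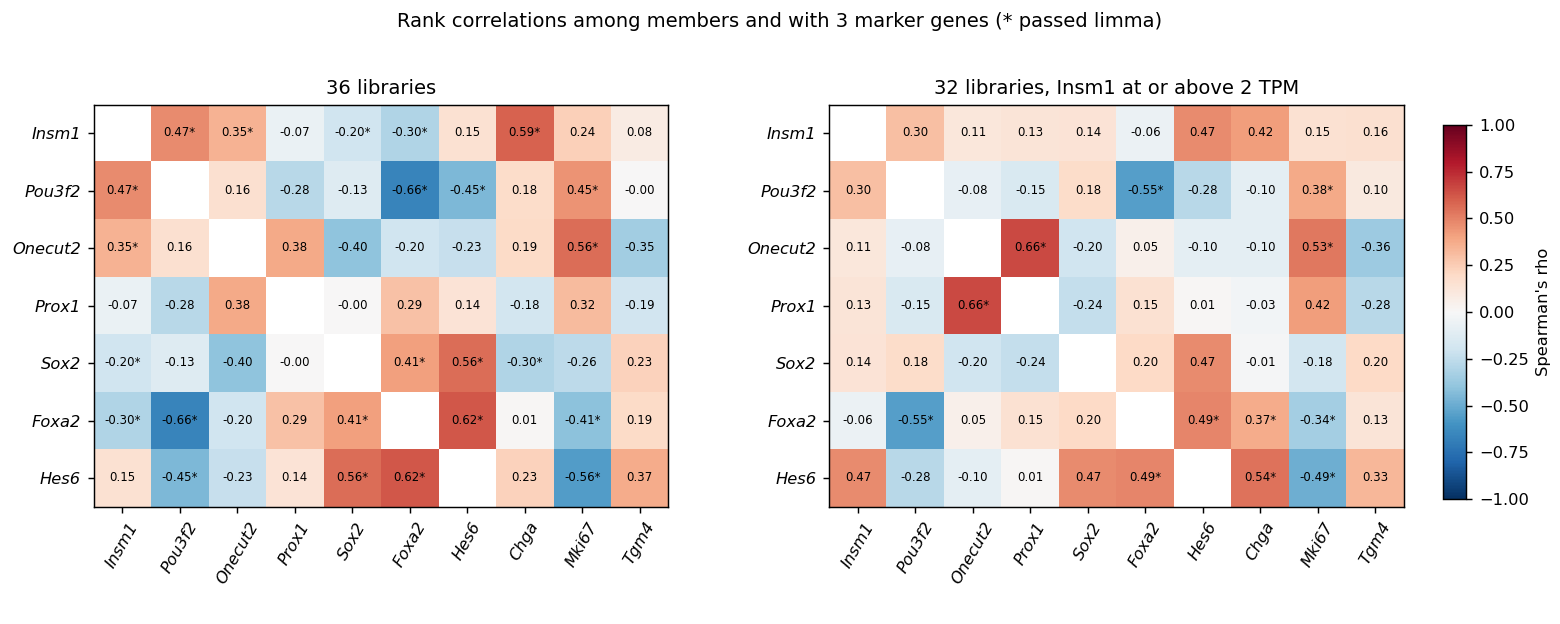
Spearman's rho among the 7 members tested and with Chga, Mki67 and Tgm4, over the 36 libraries (left) and the 32 with Insm1 at or above 2 TPM (right), where a star marks relations that passed limma (adjusted over all genes, in both directions for pairs of members). Foxa2 has rho of -0.66 with Pou3f2 and 0.62 with Hes6 on the left and keeps its stars for both on the right.

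Against Mki67, 4 of the 7 members passed over the 36 libraries, where 45.5% of all 15511 genes passed, so the share is near the background and the direction of each member is the content. Hes6 and Foxa2 were lower where Mki67 was higher. The slope of Hes6 was -1.32 ± 0.26 (SE, n = 36, limma adjusted p = 0.00010), with r = -0.65 (permutation p = 5e-05) and rho = -0.56 (permutation p = 0.00046). Without W370 and W4419, the 2 with the most extreme Mki67 (20 and 31.99 TPM), r was -0.54. That of Foxa2 was -1.64 ± 0.47 (SE, limma adjusted p = 0.0052), with r = -0.50 (permutation p = 0.0018), rho = -0.41 and r = -0.39 without those 2. Of all genes, 18.2% passed with a negative slope.

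Pou3f2 and Onecut2 were higher where Mki67 was higher, as were 27.3% of genes. The slope of Pou3f2 was 1.02 ± 0.36 (SE, limma adjusted p = 0.021, rho = 0.45) and that of Onecut2 0.43 ± 0.16 (SE, limma adjusted p = 0.023, rho = 0.56). Without the same 2 libraries r was 0.32 for Pou3f2 and 0.53 for Onecut2. Insm1, Sox2 and Prox1 had r of 0.19, -0.26 and 0.28 and did not pass. All 4 calls remained over the 32 libraries, where 46.8% of genes passed, with slopes of -1.25 for Hes6, -1.42 for Foxa2, 0.88 for Pou3f2 and 0.37 for Onecut2. With the first principal component of the 36 as a covariate, Hes6 was the only one of the 4 to pass (slope -0.97). Of all genes called against Mki67, 60% had a positive slope in TPM, 45.5% after median-of-ratios scaling and 66.5% after rescaling without the 20 genes of the largest share. The 4 members kept their directions under both. In the order of the deposited columns, most of the 36 libraries from W4356 on had Mki67 above its median. Most of them also had Onecut2 at 1 TPM or more. The labels name no batch, and this order was in no fit, so its part was not tested.

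Against Chga, 2 of the 7 members passed over the 36 libraries, Insm1 and Sox2, where 33.6% of genes passed (11.4% with a positive and 22.3% with a negative slope). The slope of Insm1 was 0.67 ± 0.07 (SE, n = 36, limma adjusted p = 3.31e-09), with r = 0.86 (permutation p = 1e-05) and rho = 0.59 (permutation p = 0.00019). That of Sox2 was -0.70 ± 0.14 (SE, limma adjusted p = 0.00019), with r = -0.64 (permutation p = 3e-05) and rho = -0.30 (permutation p = 0.073). Without W1118 and W1050, which had the most extreme Chga, r was 0.75 for Insm1 and -0.51 for Sox2. The 4 libraries with Insm1 under 2 TPM lie far from the rest in Chga as well, and they were set apart by Insm1 itself, so leaving them out narrows its range. Over the 32 the slope of Insm1 was 0.22 with r = 0.39 (permutation p = 0.029) and rho = 0.42 (permutation p = 0.016), and its limma adjusted p was 0.13, while that of Sox2 was -0.25 with r = -0.16 (adjusted p = 0.62).

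Within the 32 libraries, where 8.83% of genes passed against Chga, the members that passed were Foxa2 and Hes6, both with positive slopes, as were 8.63% of genes. The slope was 0.93 for Foxa2 (r = 0.51, permutation p = 0.0027, limma adjusted p = 0.032) and 0.63 for Hes6 (r = 0.51, rho = 0.54, limma adjusted p = 0.030), and over the 36 they were -0.23 and -0.02. With the first principal component as a covariate Hes6 also passed over the 36 (slope 0.36, adjusted p = 0.015). Without W1065 and W992, which had the most extreme Chga, r over the 32 was 0.38 for Foxa2 and 0.58 for Hes6. The 3 libraries with the highest Chga, W1065 at 479.05 TPM, W992 at 291.01 TPM and W1182 at 283.58 TPM, had Foxa2 at 32.36, 21.74 and 62.85 TPM and Pou3f2 at 0.13, 0.28 and 0.03 TPM. The scaling of TPM moved the split of all genes against Chga over the 36, and 33.8% of those called had a positive slope in TPM, 47.3% after median-of-ratios scaling and 61.5% after the rescaling.

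**Figure D5:**
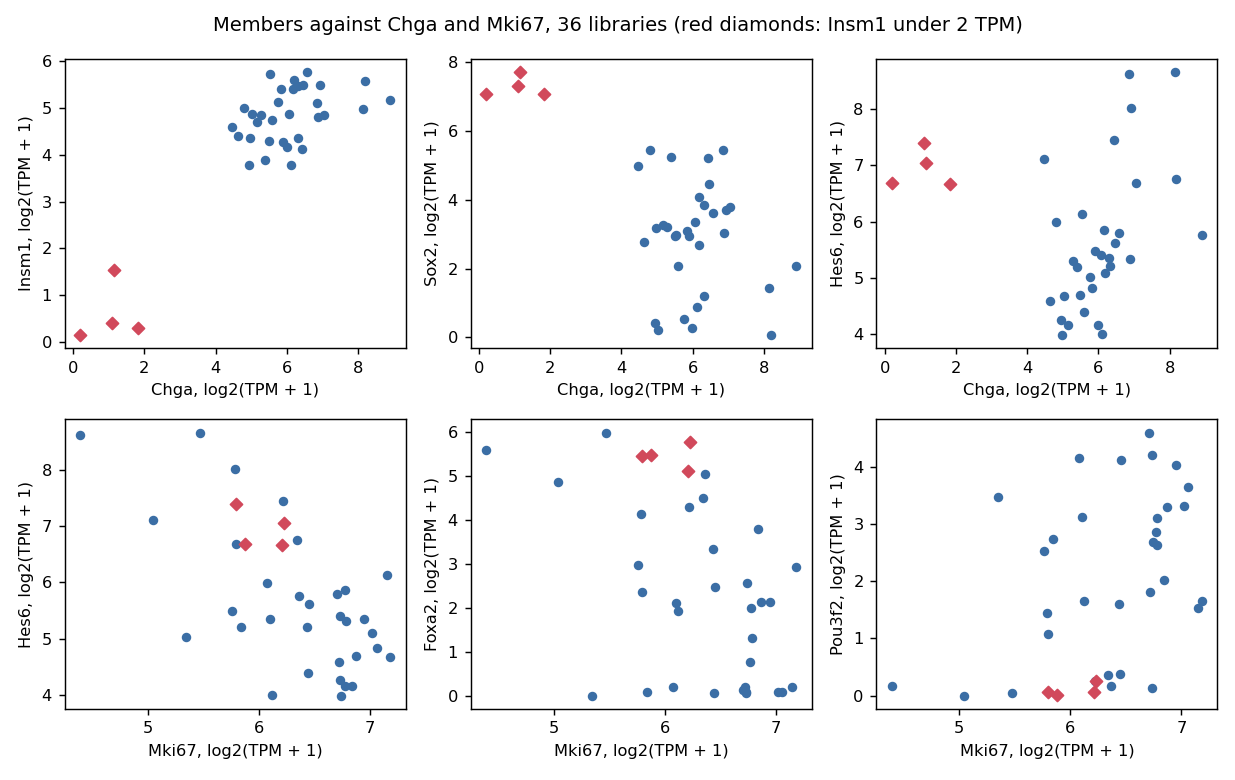
Insm1, Sox2 and Hes6 against Chga (top) and Hes6, Foxa2 and Pou3f2 against Mki67 (bottom) on the log2(TPM + 1) scale, with a point for each of the 36 libraries and red diamonds for the 4 with Insm1 under 2 TPM. In the top panels the diamonds, at 0.15 to 2.55 TPM of Chga, lie apart from the 32 others, and in the bottom panels they lie among them.

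Against Tgm4, none of the 7 members passed with limma over the 36 libraries, where 0.954% of genes passed (0.761% with a positive and 0.193% with a negative slope), and r was between -0.27 and 0.15. Tgm4 was at 0.77, 1.83 and 2469.33 TPM there, and W4517 and W4419 alone were over 100 TPM. In W4517, at 2469.33 TPM of Tgm4, Insm1 was at 34.15 TPM, Pou3f2 at 10.16 TPM and Foxa2 listed at 0. In W4419, at 195.39 TPM of Tgm4, Insm1 was at 23.24 TPM, Foxa2 at 28.31 TPM and Pou3f2 listed at 0. Over the 32 libraries, where 5.20% of genes passed, and over the 34 with Tgm4 at or under 100 TPM, again 0 members passed. At an unadjusted p under 0.05 over the 36, 0 of 7 passed with limma, while by rho the permutation p was 0.035 for Onecut2 (rho = -0.35) and 0.027 for Hes6 (rho = 0.37). Of the genes called, 79.7% had a positive slope in TPM, 91.5% after median-of-ratios scaling and 94.8% after the rescaling.

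In the 79 libraries most members were under 1 TPM, and Chga, Tgm4 and Sox2 themselves separated into clusters, so the only relation that could be tested was that of Hes6 with Mki67. Its slope was 0.16 ± 0.04 (SE, n = 79, limma adjusted p = 0.00038), with r = 0.40 (permutation p = 0.00015) and rho = 0.53 (permutation p = 1e-05). Without W4181 and W4126, which had the highest Mki67, r stayed at 0.40. At the low end, W5000 to W5005 had Mki67 between 0.39 and 0.93 TPM and Hes6 between 5.07 and 7.66 TPM. These libraries stood from W4356 on in the order of the deposited columns, and the part of that order was not tested. The slope of Hes6 is below the median of 0.19 over all 13413 genes, of which 77.8% passed (76.4% with a positive and 1.44% with a negative slope). Median-of-ratios scaling moved the median slope to -0.00 and the slope of Hes6 to 0.01 (adjusted p = 0.89), and positive slopes went from 98.2% to 54.2% of the genes called (81.5% after the rescaling, with a median of 0.04). Sox2 was detected in 40 of the 79. Mki67 was above its median in 30 of these 40 and in 9 of the 39 without Sox2, Tgm4 in 10 of 40 and in 29 of 39, and Chga in 19 of each. The number of libraries with Sox2 depends on the level taken as detected and on the scaling.

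Neurod1 and Nkx2-1 separated into low and high clusters within the 36 libraries, and their detection was counted instead. Of the 8 libraries with Neurod1, 6 had Onecut2, against 10 of the 28 without Neurod1. Most of the 8 also stood from W4356 on in the order of the deposited columns, and the part of that order was not tested. Foxa2 was detected in 5 of the 8, Pou3f2 in 5 and Sox2 in 4, and Mki67 was above its median in 4. The highest Neurod1, 16.08 TPM, was in W1065, the library with the highest Chga and Prox1. Of the 6 libraries with Nkx2-1, 5 had Onecut2. Both factors were detected in 2 libraries.

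The genes whose pattern was most like each member were found by rho over the 36 libraries among 15511 genes, as a description. For Foxa2 and Sox2 the most alike were neighbors on the chromosome. 9030622O22Rik, a lincRNA 2674 bases from Foxa2 on chromosome 2, had rho = 0.90 with Foxa2, above Otop1 (0.86), a proton channel gene, and Kcnk16 (0.85), a potassium channel gene. Sox2ot, the noncoding transcript within whose span Sox2 lies, had rho = 0.89 with Sox2, and the annotated loci Gm42692 and RF01953, at 4309 and 11766 bases from Sox2, had 0.83 and 0.77. The level of 9030622O22Rik was 0, 1.86 and 48.22 TPM and that of Sox2ot 0.04, 9.21 and 62.14 TPM.

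For the other 5 members the most alike genes lay elsewhere in the genome. Insm1 was nearest to Gadd45g (0.77), a growth arrest gene, 2610301B20Rik (0.74) and Gm2861 (0.73). Pou3f2 was nearest to Eya4 (0.84), a transcriptional coactivator and phosphatase gene, Chst5 (0.81) and E130114P18Rik (0.79), of which the last lies on the same chromosome. Hes6 was nearest to Pald1 (0.84), Hs3st6 (0.83), a heparan sulfate sulfotransferase gene, and Xpot (0.83), which exports tRNA. Onecut2 was nearest to the centriolar satellite gene Pcm1 (0.83), Pdzd4 (0.83) and Brcc3 (0.82), and Prox1 to Ahcyl1 (0.78), Gon4l (0.75) and Gm21994 (0.75).

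Of 47 other neural or endocrine transcription factors, 23 had a mean of at least 1 TPM in the 36 libraries. Against Chga 17 of the 23 passed, 12 with positive slopes such as Sox1 (0.68 ± 0.07, SE) and Myt1 (0.60 ± 0.08, SE) and 5 with negative slopes such as Sox21 (-0.54 ± 0.06, SE) and Pou3f3 (-0.47 ± 0.06, SE). The median slope of the list was 0.25 against -0.02 over all genes, and over the 32 libraries 3 of 23 passed and the medians were -0.01 and 0.06. These counts stand beside 33.6% of all genes over the 36 and 8.83% over the 32. Against Mki67 9 of 23 passed, 7 with positive slopes, which is a smaller share than the 45.5% of all genes. The slopes of Lhx2, Myt1l, Neurod4 and Sox11 were 1.31 ± 0.21, 1.22 ± 0.24, 1.69 ± 0.34 and 1.22 ± 0.31 (SE), with limma adjusted p-values of 8.35e-06, 0.00012, 0.00014 and 0.0016. The median slope was 0.37 against 0.05 over all genes, and over the 32 libraries 10 of 23 passed (46.8% of all genes). Against Tgm4 0 of 23 passed with limma over the 36 (1 of 23 at an unadjusted p under 0.05) and 3 of 23 over the 32. Of all genes, 0.954% and 5.20% passed there.

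Among 20 genes of secretory granules and neuroendocrine effector functions, 16 of the 18 tested passed against Chga, all with positive slopes, for instance Scg5 (0.83 ± 0.07, SE), a granule chaperone, Snap25 (0.85 ± 0.08, SE), a vesicle fusion protein, and Ddc (1.09 ± 0.11, SE), an enzyme of amine synthesis. Over the 32 libraries 5 of 18 passed, 4 with positive and 1 with a negative slope (8.83% of all genes passed). Against Mki67 7 of 19 passed, 6 with positive slopes, again a smaller share than the 45.5% of all genes. Against Tgm4 0 of 19 passed with limma over the 36 (0 of 19 at an unadjusted p under 0.05) and 1 of 19 over the 32 (0.954% and 5.20% of all genes). In the Notch pathway list 9 of 16 passed against Chga, with Hes1 (-0.43 ± 0.07, SE) and Notch2 (-0.35 ± 0.06, SE) among 5 negative and Mfng (0.24 ± 0.04, SE) and Dll3 (0.22 ± 0.04, SE) among 4 positive slopes (33.6% of all genes passed). Over the 32 libraries 6 of 16 passed and the split was 5 positive and 1 negative (8.83% of all genes). Against Mki67 6 of 16 passed (45.5% of all genes), and Lfng, a glycosyltransferase of Notch receptors, had a slope of -1.35 ± 0.27 (SE, limma adjusted p = 0.00012). Against Tgm4 0 of 16 passed with limma over the 36 (0 of 16 at an unadjusted p under 0.05) and 1 of 16 over the 32 (0.954% and 5.20% of all genes). The median slope of the Notch list was -0.04 against Chga and -0.03 against Mki67, near the -0.02 and 0.05 of all genes. In the 79 libraries 6 of 12 Notch genes passed against Mki67, a smaller share than the 77.8% of all genes. The smallest adjusted p was that of Lfng (0.54 ± 0.05, SE), and the median slope was 0.14 against 0.19 over all genes.

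Relatives of the members were mostly low, and 9 of 26 could be tested in the 36 libraries. Against Chga 7 of 9 passed, among them Foxa1 (0.53 ± 0.07, SE), the paralog of Foxa2, and Sox9 (-0.39 ± 0.06, SE), and over the 32 libraries 0 of 9 passed with limma (2 of 9 at an unadjusted p under 0.05). Against Mki67 Neurod4 (1.69 ± 0.34, SE) and Onecut1 (0.78 ± 0.26, SE, limma adjusted p = 0.013) were among those that passed.

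By GENCODE M21 on GRCm38, Insm1 lies on chromosome 2 from 146221921 to 146225020 (plus strand, 1 exon) and Foxa2 on chromosome 2 from 148042877 to 148046969 (minus strand), 1.82 Mb apart. Neurod1 is on the same chromosome from 79452521 to 79456751. Sox2 is on chromosome 3 from 34650405 to 34652461, Pou3f2 on chromosome 4 from 22482780 to 22488366 and Nkx2-1 on chromosome 12 from 56531958 to 56536908. Hes6 is on chromosome 1 from 91411483 to 91414038, as is Prox1 from 190118035 to 190170714, and Onecut2 is on chromosome 18 from 64340020 to 64400987. No member had a transcript of another gene at 95% identity over 80% of its length. Strand-specific counting is not given in the sources used here, so reads from overlapping exons cannot be told apart. Exons of Cerkl and Gm26755 overlap 7.37% and 5.64% of the exon bases of Neurod1, and exons of Prox1os overlap 1.59% of those of Prox1. Sox2 lies within Sox2ot without sharing an exon base with it.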

How the data were processed

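The authors deposited a table of TPM values with 1 column per library. Per the study's methods and the submitters' processing notes, ribosomal RNA was depleted, reads were sequenced on an Illumina HiSeq, trimmed with Trimmomatic, aligned with Bowtie2 2.2.5 to allele-specific transcriptomes built on GRCm38 with Seqnature, and quantified with RSEM 1.2.20. The annotation release is not given in the sources used here, and symbols were matched through GENCODE M21 for 45136 of 45699 genes. TPM keeps no sequencing depth, so counting intervals and limits of detection are unknown. All libraries form 1 group, and p-values measure the spread between them. The study's methods give fewer prostates with RNA sequencing than there are libraries here, so some libraries may not be separate animals.

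Libraries were separated by a Gaussian mixture on the first principal component (scikit-learn 1.9.0). Within a set, genes whose mean reached 1 TPM were fitted on log2(TPM + 1) with limma 3.58.1 in R 4.3.3, with p-values adjusted over all genes. A predictor or member that itself separated into clusters of at least 6 libraries was not correlated. Permutation tests used numpy 2.4.6. The text names the 9 members, the 3 genes most like each by rho, and up to 4 genes of each list with the smallest adjusted p. Beyond this rule it names some of the genes compared for the 4 libraries low in Insm1. The members and lists were chosen with earlier results of these data known. The fits were tested on simulated data. Some results of the lists are not reported here.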

Additional observations from a re-analysis of the deposited data

How the results depend on the processing

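For 19 member relations, 18 that passed over the 36 or the 32 libraries and Hes6 on Mki67 in the 79, 142 alternative fits were made. Of these, 94 kept the direction and the side of the threshold, 34 kept the direction and no longer passed, 3 kept it and newly passed (Onecut2 on Prox1) and 11 changed direction, of which 3 newly passed (Hes6 on Chga with the principal component and without the 4 libraries low in Insm1, and Foxa2 on Chga without the 4). Of 21 pairs, 9 passed over the 36, and 3 under ranks, with the first principal component as a covariate, and without the 4 libraries low in Insm1. The 3 pairs differed between these settings, and only Foxa2 with Hes6 was in each. Ranks added Foxa2 with Pou3f2 and Pou3f2 with Hes6. The component added Insm1 with Hes6 and Onecut2 with Prox1, which were not among the 9. Without the 4 libraries, Foxa2 with Pou3f2 and Onecut2 with Prox1 were added. Against Chga 2 members passed, and 1 under ranks. In the 79 libraries 1 member passed against Mki67, and 0 after median-of-ratios scaling, after rescaling without the 20 genes of the largest share, and with the first principal component as a covariate. The cause was not tested.

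Slopes changed direction as follows. Foxa2 on Chga went from -0.23 to 0.01 under ranks, 0.33 with the principal component and 0.93 without the 4 libraries. Hes6 on Chga went from -0.02 to 0.02 after median-of-ratios scaling, 0.23 under ranks, 0.36 with the principal component and 0.63 without the 4. Insm1 on Foxa2 was 0.01 with the principal component, Insm1 on Sox2 was 0.05 without the 4, and Insm1 on Onecut2 was -0.12 with the principal component and -0.00 without the 4. The settings without the 4 libraries low in Insm1 and without the 2 high in Tgm4 were chosen after seeing the data.

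Over all genes, 5216 passed against Chga, and 236 under ranks, 2041 with the principal component and 1370 without the 4. Against Mki67 in the 36, 7055 passed, and 15340 with no filter on low values. Against Tgm4, 148 passed, and 282 after median-of-ratios scaling, 9 under ranks, 385 with no filter, 29 with Chga and Mki67 as covariates, 806 without the 4 and 3 without the 2 high in Tgm4. In the 79, 10440 passed against Mki67, and 5722 after median-of-ratios scaling, 5818 after the rescaling and 4666 with the principal component.

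With 5 TPM in place of 1 as the level of detection, Foxa2 and Pou3f2 were each detected in 15 libraries, Sox2 in 30, Neurod1 in 3, Onecut2 in 1 and Nkx2-1 in 0. At 0.1 TPM Prox1 was detected in 81 libraries, Sox2 in all but 1, Nkx2-1 in 37, Onecut2 in 33 and Neurod1 in 21, and after the rescaling Sox2 was detected in all but 8 in place of 70, Onecut2 in 27 in place of 16, Neurod1 in 14 in place of 8 and Nkx2-1 in 13 in place of 6. The 37 libraries with at least 4 members were within 1.5 times under each level and scaling. Fits in the 79 on Chga, Tgm4 or other members were not run, nor was leaving out W78022 in the 36, to which it does not belong. No paired analysis was possible because all libraries form 1 group. TPM cannot show the depth behind the low levels of Neurod1, Onecut2 and Nkx2-1.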

Other observations

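Single libraries held extreme levels of several members at once. W1182 had the highest Foxa2 (62.85 TPM) and the highest Hes6 (404.68 TPM). W1065 had the highest Neurod1 (16.08 TPM), Prox1 (66.27 TPM) and Chga (479.05 TPM). W992, with the highest Nkx2-1 (3 TPM), had the lowest Sox2 (0.05 TPM). W1915 had the highest Sox2 (209.73 TPM) with Insm1 at 1.91 TPM, the only one of the 4 libraries low in Insm1 in which it reached 1 TPM.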
